A study of Homo sapiens with 16 samples.

Results

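Chemokine and chemokine receptor genes were examined in Kasumi-1 and SKNO-1, human AML cell lines with the t(8;21) translocation that express the fusion protein RUNX1/ETO. Members were chosen by gene name, as every gene symbol in the deposited in vitro tables that is built from CCL, CXCL, CX3CL, CCR, CXCR, CX3CR or XCR and a number. This rule gave 59 of the 60357 genes, of which 41 encode ligands and 18 encode receptors. No measured value entered the rule.

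The study delivered siRNAs to these cells with lipid nanoparticles (LNPs), which carried either siRE-mod, a chemically modified siRNA against the fusion site of RUNX1/ETO, or siMM-mod, its mismatch control. Both lines are labelled wild type, SKNO-1 was kept with GM-CSF, and all cells received 2 µg/ml LNPs for 24 h with harvest on day 3. There are 12 libraries, 3 per line and siRNA label, and no untreated library. The labels do not say whether replicates came from separate cultures, so p-values measure the spread between these libraries, which may be technical. That spread also holds the expression differences between libraries of the same label that are described below. Genes held 60559466 to 147990959 reads per library, and 3 reads, taken as the detection floor, corresponded to 0.0203 to 0.0495 CPM (counts scaled to the library's total of reads on genes). All of the members together took 0.00245% to 0.0198% of the reads of a library.

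Chemokines are small secreted proteins that direct the migration of leukocytes along a gradient. They bind receptors that span the membrane several times and signal through inhibitory G proteins to phosphoinositide 3-kinase, small GTPases and the cytoskeleton. In bone marrow, CXCL12 from stromal cells holds CXCR4-bearing stem and leukaemic cells in their niche, and CXCL8 draws CXCR2-bearing neutrophils.

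The siRNA labels crossed clear expression differences between libraries, so values are given by library or as ranges over sets of libraries. RUNX1T1 (ETO), which gives the 3′ part of the fusion transcript, checks the knockdown, and CD34, a stem cell marker, separated the libraries further. Levels are CPM normalized by the TMM method over the 12 libraries. CD34 was at 117 to 420.1 in 6 libraries, called CD34-expressing here, and at 0.107 to 0.625 in the other 6, called CD34-silent. IL5RA, the interleukin-5 receptor, was at most 0.178 in the CD34-expressing and 36.2 to 67.8 in the CD34-silent libraries. Among the CD34-expressing libraries, RUNX1T1 was at 296 to 329 in SKNO-1 siMM-mod 1 and 2 and Kasumi-1 siMM-mod 1, and at 92.7 to 127 in SKNO-1 siMM-mod 3, SKNO-1 siRE-mod 1 and Kasumi-1 siMM-mod 2. Among the CD34-silent libraries, RUNX1T1 was at 159 to 164 in SKNO-1 siRE-mod 2, Kasumi-1 siMM-mod 3 and Kasumi-1 siRE-mod 2, and at 37.2 to 44.3 in Kasumi-1 siRE-mod 1, SKNO-1 siRE-mod 3 and Kasumi-1 siRE-mod 3. Each of these 4 sets holds 3 libraries and includes both cell line labels. RUNX1T1 thus goes against some siRNA labels: the library labelled Kasumi-1 siMM-mod 2, at 92.7, lies below that labelled Kasumi-1 siRE-mod 2, at 159. Whether siRNA or cell line labels were exchanged between libraries was not tested, so every comparison by label is of libraries so labelled and may not be of the treatments or lines named. No label or method names the sets, so they serve as a description only, with ranges and no test.

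Most chemokine genes had few or no reads. Over the 12 libraries, 10 members had at least 600 reads in total, 20 others reached 0.1 CPM in a library, 19 had reads but stayed under 0.1 CPM, and 10 were listed at 0 throughout. The 10 members with at least 600 reads were the ligands CXCL8, CCL28, CCL5, CCL2, CXCL2, CCL4L2 and CXCL3 and the receptors CXCR4, CXCR2 and CXCR6. The 10 listed at 0 were ligands: CXCL5, CXCL9, CCL7, CCL8, CCL11, CCL14, CCL15, CCL16, CCL18 and CCL27. A listed 0 need not mean absence of the transcript, since MIF, a cytokine found in most cell types, was also at 0 to 0.122 CPM in these tables.

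**Figure D1:**
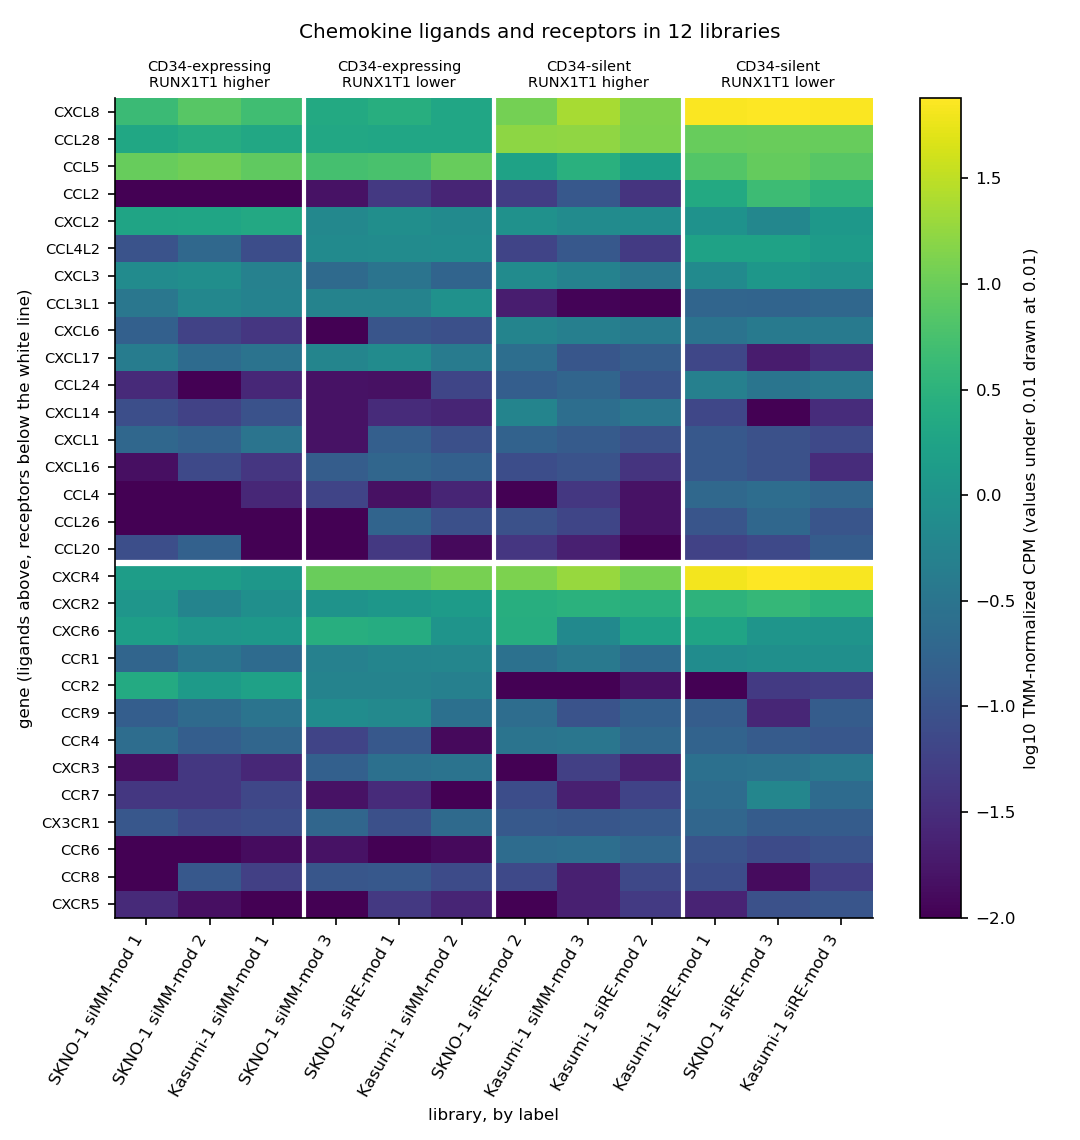
Normalized CPM on a log10 colour scale for the 30 members that reached 0.1 CPM in a library or 600 reads in total (rows, 17 ligands above the white line and 13 receptors below it). Columns are the 12 libraries by label, ordered by CD34 and then by RUNX1T1; CXCL8 and CXCR4 are brightest in the 3 CD34-silent libraries with lower RUNX1T1, at 71.2 to 75.8 and 64.3 to 75.7.

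CXCR4, the receptor for CXCL12, was higher at the lower RUNX1T1 level in both CD34 classes. The gene (ENSG00000121966.6) lies at chr2:136114349-136118165 on the minus strand in GRCh38, the build of all positions given here. In the order of replicates 1 to 3, it was at 1.12, 12.3 and 19.0 normalized CPM in Kasumi-1 labelled siMM-mod and at 64.3, 11.9 and 70.2 in Kasumi-1 labelled siRE-mod. SKNO-1 siMM-mod libraries held 1.45, 1.43 and 9.98, and SKNO-1 siRE-mod libraries 9.72, 13.0 and 75.7. Within each line, the labelled groups overlapped. Read by CD34 and RUNX1T1, the ranges were separate: in the CD34-expressing libraries CXCR4 was at 1.12 to 1.45 where RUNX1T1 was higher and at 9.72 to 12.3 where it was lower, so that the ranges were at least 6.69-fold apart. In the CD34-silent libraries the corresponding ranges were 11.9 to 19.0 and 64.3 to 75.7, at least 3.39-fold apart. At the higher RUNX1T1 level, CXCR4 was at least 8.19-fold higher in the CD34-silent than in the CD34-expressing libraries.

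CXCL8 (interleukin-8), a neutrophil attractant, reached a similar top level but did not follow RUNX1T1 in the same way. It lies at chr4:73740541-73743716 on the plus strand. In Kasumi-1 it was at 4.90, 1.99 and 23.6 normalized CPM with siMM-mod and at 71.2, 13.6 and 71.8 with siRE-mod. SKNO-1 held 4.40, 7.34 and 2.24 with siMM-mod and 2.66, 11.8 and 75.8 with siRE-mod, so the labelled groups overlapped in both lines. In the CD34-expressing libraries CXCL8 was lower where RUNX1T1 was lower, at 1.99 to 2.66 against 4.40 to 7.34. In the CD34-silent libraries it was higher where RUNX1T1 was lower, at 71.2 to 75.8 against 11.8 to 23.6. The direction of CXCL8 therefore differed between the CD34 classes, while that of CXCR4 did not; this difference was not tested.

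Because CXCR4 and CXCL8 moved together in the CD34-silent libraries, and CXCL2 and CXCL3 moved with CXCL8 in the CD34-expressing ones, the 250 bases before the RefSeq start of these 4 genes are shown, 5′ to 3′, in GRCh38.p14. Capitals mark matches on either strand to TGANTCA (AP-1), GAGGAA (ETS factors), TTNNGNAA (C/EBP) or the kappaB consensus GGGRNWYYCC. There, R is A or G, W is A or T, Y is C or T and N is any base.
CXCR4, chr2:136118150-136118399, strand -: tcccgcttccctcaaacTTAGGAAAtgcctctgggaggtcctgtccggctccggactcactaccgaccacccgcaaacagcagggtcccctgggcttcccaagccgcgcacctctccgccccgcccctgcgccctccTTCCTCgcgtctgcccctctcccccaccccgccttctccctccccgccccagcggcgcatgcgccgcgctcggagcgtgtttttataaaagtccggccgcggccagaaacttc
CXCL8, chr4:73740319-73740568, strand +: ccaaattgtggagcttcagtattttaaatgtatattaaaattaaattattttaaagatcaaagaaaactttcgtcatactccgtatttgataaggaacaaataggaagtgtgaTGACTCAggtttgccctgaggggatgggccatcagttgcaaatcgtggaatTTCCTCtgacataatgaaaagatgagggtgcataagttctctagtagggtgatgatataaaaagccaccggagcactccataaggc
CXCL2, chr4:74099196-74099445, strand -: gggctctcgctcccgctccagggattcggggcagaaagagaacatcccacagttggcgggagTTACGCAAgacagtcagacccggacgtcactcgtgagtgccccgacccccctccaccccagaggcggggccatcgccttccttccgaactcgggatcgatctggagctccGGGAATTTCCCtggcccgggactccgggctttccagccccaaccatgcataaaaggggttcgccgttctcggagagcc
CXCL3, chr4:74038690-74038939, strand -: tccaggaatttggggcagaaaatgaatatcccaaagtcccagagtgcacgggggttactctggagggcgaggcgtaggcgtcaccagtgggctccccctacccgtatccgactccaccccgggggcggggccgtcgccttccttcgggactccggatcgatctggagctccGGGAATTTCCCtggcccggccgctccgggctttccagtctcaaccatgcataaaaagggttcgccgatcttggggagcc

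In the CXCR4 window a C/EBP match begins at base -233 and an ETS match at base -113 from the start of transcription. The CXCL8 window holds an AP-1 match at base -137 and an ETS match at base -86. That ETS match overlaps TGGAATTTCC, which differs from the kappaB consensus only in its leading letter and so was not marked. Absence of a marked match is therefore not absence of a kappaB site. The CXCL2 and CXCL3 windows each hold kappaB matches that overlap each other, at bases -78 and -77 in CXCL2 and -79 and -78 in CXCL3, and CXCL2 also has a C/EBP match at base -188. No TGTGGT, a core RUNX motif, stands in any of the 4 windows. Of the 59 members, 43 matched a RefSeq promoter; of those, 10 held TGTGGT, 10 the kappaB consensus, 7 TGANTCA, 18 TTNNGNAA and 16 GAGGAA. Among the 27305 promoters in the table, the shares were 10.9%, 5.05%, 6.6%, 33.6% and 23.4%. A match is a match of letters and was not tested as a binding site.

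**Figure D2:**
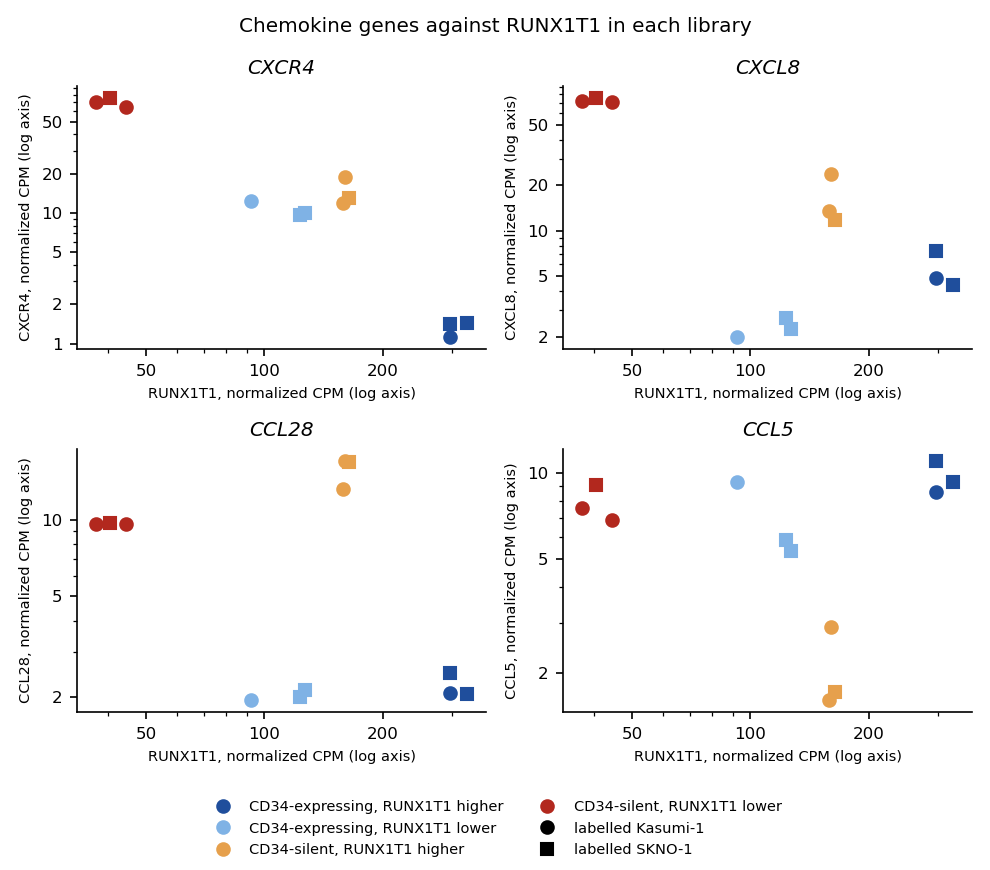
CXCR4, CXCL8, CCL28 and CCL5 (vertical, normalized CPM, log axis) against RUNX1T1 (horizontal, normalized CPM, log axis) in each of the 12 libraries, with colour for the CD34 and RUNX1T1 set and symbol for the cell line label. CXCR4 is higher at lower RUNX1T1 in both CD34 classes, whereas CXCL8 and CCL5 are higher at lower RUNX1T1 in the CD34-silent libraries only.

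CCL28, a mucosal chemokine that binds CCR10 and CCR3, was split by CD34 and not by the siRNA labels. It lies at chr5:43376645-43412391 on the minus strand. It was at 2.09, 1.95 and 17.0 normalized CPM in Kasumi-1 labelled siMM-mod and at 9.64, 13.2 and 9.63 in Kasumi-1 labelled siRE-mod. In SKNO-1 it was at 2.05, 2.48 and 2.13 with siMM-mod and at 2.01, 16.8 and 9.72 with siRE-mod. All of the 6 CD34-expressing libraries lay between 1.95 and 2.48, and all of the 6 CD34-silent ones between 9.63 and 17.0. Within the CD34-silent libraries, CCL28 was lower where RUNX1T1 was lower, at 9.63 to 9.72 against 13.2 to 17.0, which is opposite to CXCR4 and CXCL8 in the same libraries.

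CCL5 (RANTES), which attracts T cells and monocytes, had its lowest levels in 3 of the CD34-silent libraries. It lies at chr17:35871491-35880793 on the minus strand. It was at 8.63, 9.37 and 2.89 normalized CPM in Kasumi-1 labelled siMM-mod and at 6.84, 1.6 and 7.56 in Kasumi-1 labelled siRE-mod. In SKNO-1 it was at 9.35, 11.1 and 5.36 with siMM-mod and at 5.83, 1.71 and 9.11 with siRE-mod. The 3 libraries with the lowest values, 1.6 to 2.89, were the CD34-silent ones with higher RUNX1T1. The CD34-silent libraries with lower RUNX1T1 were at 6.84 to 9.11, within the range of 5.36 to 11.1 of the CD34-expressing libraries.

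CCL2 (MCP-1), the main monocyte attractant, was low or absent except in 3 libraries. It lies at chr17:34255218-34257203 on the plus strand. It had 0, 2 and 11 reads in Kasumi-1 labelled siMM-mod and 278, 5 and 307 in Kasumi-1 labelled siRE-mod, and 0, 0 and 1 reads in SKNO-1 labelled siMM-mod and 3, 5 and 699 in SKNO-1 labelled siRE-mod. The 3 high libraries, at 2.29 to 4.55 normalized CPM, are the CD34-silent ones with lower RUNX1T1. The CD34-silent libraries with higher RUNX1T1 were at 0.0383 to 0.119, so that the ranges were at least 19.3-fold apart. CCL2 passed the filter on reads through these 3 libraries alone. Its neighbours on chromosome 17, CCL7, CCL8 and CCL11, were listed at 0 in all 12 libraries, as was CXCL5 beside CXCL3 on chromosome 4.

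CXCL2 and CXCL3 are close paralogs of CXCL8 that also act on CXCR2. CXCL2 was at 1.82 to 2.21 normalized CPM in the CD34-expressing libraries with higher RUNX1T1 and at 0.618 to 1.19 in the other 9 libraries, and CXCL3 was at 0.178 to 1.11 over the 12 libraries. In the CD34-expressing libraries CXCL3 was lower where RUNX1T1 was lower, at 0.178 to 0.312 against 0.501 to 0.822, the direction of CXCL8 there. At the lower RUNX1T1 level it was at least 2.33-fold higher in the CD34-silent than in the CD34-expressing libraries, at 0.726 to 1.11. CCL4L2, a macrophage inflammatory protein, was at 0.719 to 0.764 against 0.0813 to 0.202 in the CD34-expressing and at 1.34 to 1.73 against 0.0460 to 0.119 in the CD34-silent libraries, in each class higher where RUNX1T1 was lower. Values of CCL4L2, CCL4, CCL3 and CCL3L1 are uncertain, because these genes are near-identical copies in pairs and the treatment of reads that match both is not stated.

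Among receptors, CXCR2, which binds CXCL8 and its paralogs, was at 0.867, 1.36 and 2.99 normalized CPM in Kasumi-1 labelled siMM-mod and at 3.20, 2.83 and 2.97 in Kasumi-1 labelled siRE-mod. In SKNO-1 it was at 1.10, 0.562 and 1.00 with siMM-mod and at 1.13, 2.73 and 3.78 with siRE-mod, where the labelled groups did not overlap. CXCR2 lies at chr2:218125289-218137251 on the plus strand. As with CCL28, the CD34-expressing libraries lay below the CD34-silent ones, at 0.562 to 1.36 against 2.73 to 3.78. CXCR6, the receptor for CXCL16, was at 0.703 to 2.71 over the 12 libraries, and its ranges overlapped between CD34 classes at both RUNX1T1 levels.

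CCR2, the receptor for CCL2, had 501 reads in total and missed the filter. It was at 1.65, 0.484 and 0 normalized CPM in Kasumi-1 labelled siMM-mod and at 0, 0.0153 and 0.0521 in Kasumi-1 labelled siRE-mod. In SKNO-1 it was at 2.34, 1.31 and 0.547 with siMM-mod and at 0.550, 0 and 0.0456 with siRE-mod. CCR2 was highest, at 1.31 to 2.34, in the CD34-expressing libraries with higher RUNX1T1, in which CCL2 had no read, and at most 0.0521 in the CD34-silent libraries. CCR1, a receptor for CCL5 and CCL3, was at 0.185 to 0.317 and 0.230 to 0.367 where RUNX1T1 was higher and at 0.500 to 0.598 and 0.784 to 0.865 where it was lower, in the CD34-expressing and the CD34-silent libraries.

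**Figure D3:**
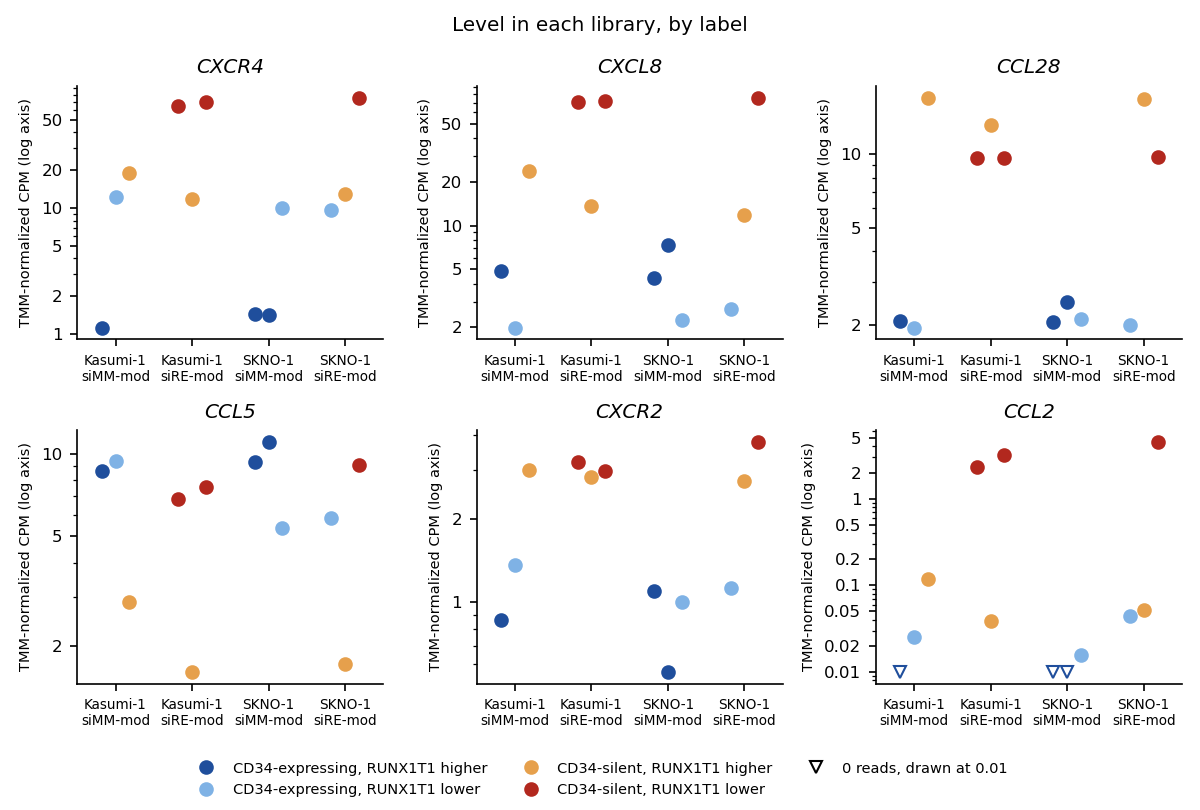
Normalized CPM (log axis) of CXCR4, CXCL8, CCL28, CCL5, CXCR2 and CCL2 in each library, placed by label (3 points per group, no mean drawn) and coloured by CD34 and RUNX1T1 set; open triangles are libraries with 0 reads. Points of 1 colour lie together across labels, and CCL28 splits into 1.95 to 2.48 and 9.63 to 17.0 by CD34.

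The other 18 members that reached 0.1 CPM peaked at 0.104 to 0.916 CPM, where a value rests on few reads. Among ligands the highest values were 0.916 for CCL3L1, 0.743 for CXCL17, 0.564 for CXCL6, 0.564 for CXCL14, 0.495 for CCL24, 0.312 for CXCL1, 0.241 for CCL4, 0.195 for CCL26, 0.193 for CXCL16 and 0.159 for CCL20. Among receptors they were 0.766 for CCR9, 0.599 for CCR7, 0.354 for CXCR3, 0.335 for CCR4, 0.249 for CCR6, 0.216 for CX3CR1, 0.119 for CCR8 and 0.104 for CXCR5. Some of these also differed by set. CXCR3, a receptor of T cells for interferon-induced chemokines, was at 0.156 to 0.354 in the 6 libraries with lower RUNX1T1 of their CD34 class and at 0.0103 to 0.0540 in the other 6. CCL24 (eotaxin-2), an eosinophil attractant, was at most 0.0636 in the CD34-expressing libraries and at 0.0997 to 0.184 and 0.319 to 0.495 in the CD34-silent ones with higher and lower RUNX1T1. CCR6 was at most 0.0156 in the CD34-expressing and 0.0781 to 0.249 in the CD34-silent libraries, but 69.2% of its exon bases are shared with another gene on the same strand. Likewise, 88.6% of the exon bases of CXCR5 lie opposite BCL9L, and whether counting used strand is not given in the sources used here.

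Several ligands and receptors that bind each other were not both present. CXCL12, the ligand of CXCR4, had 2 reads over the 12 libraries, so CXCR4 was measured in cells with almost no transcript of its ligand. CCR10, a receptor for CCL28, had 52 reads in total, and CCR3, which binds CCL28, CCL24 and CCL26, had 18. CXCL8, CXCL2 and CXCL3 were present together with CXCR2, and CCL5 with CCR1.

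Levels of different genes were compared per transcript length, on the deposited FPKM (reads scaled by library total and by exon length) scale. CCL5 was the leading ligand in the 6 CD34-expressing libraries and CXCL8 in the 6 CD34-silent ones. CCL5 took 46.0% to 61.8% of the summed ligand FPKM in the former and 8.95% to 12.6% in the latter, and CXCL8 took 8.77% to 23.3% and 41.4% to 72.9%. CCL28 took 20.3% to 29.1% in the CD34-silent libraries with higher RUNX1T1 and at most 6.55% elsewhere. CXCR4 was the leading receptor in all 12 libraries, with 25.9% to 34.2% of the summed receptor FPKM in the CD34-expressing libraries with higher RUNX1T1, 68.7% to 84.4% in the next 6 libraries and 92.6% to 93.8% in the CD34-silent ones with lower RUNX1T1. CCR2 took 18.7% to 27.0% in the CD34-expressing libraries with higher RUNX1T1 and at most 2.32% elsewhere. The summed ligand FPKM was 7.58 to 17.3 in 9 libraries and 49.6 to 51.8 in the CD34-silent ones with lower RUNX1T1.

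**Figure D4:**
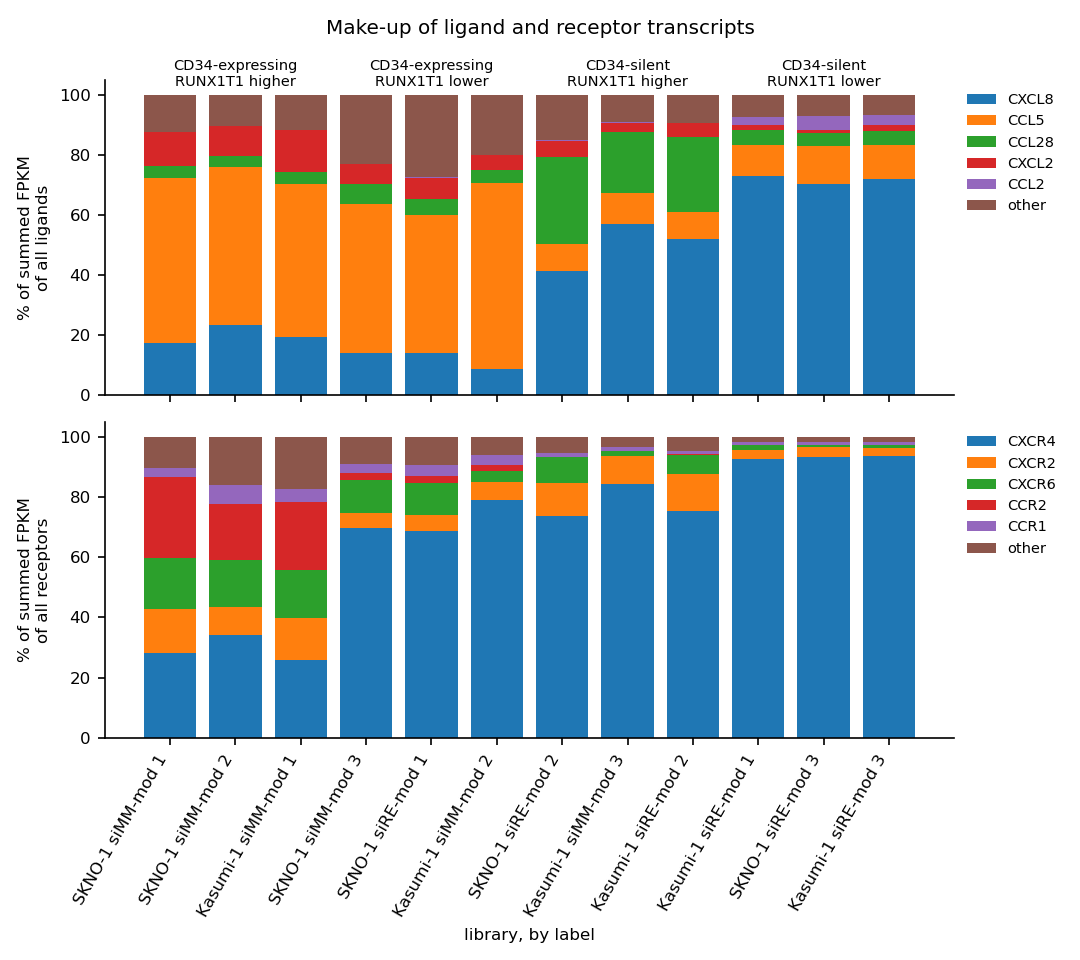
Share of the summed FPKM of all ligands (top) and all receptors (bottom) taken by named members in each of the 12 libraries, in percent, ordered by CD34 and then RUNX1T1. CCL5 is the largest ligand share in the 6 CD34-expressing libraries (46.0% to 61.8%), CXCL8 in the 6 CD34-silent ones, and CXCR4 reaches 92.6% to 93.8% of the receptors at the right.

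By siRNA label, no member passed the test in either line. In Kasumi-1, 8 members had at least 600 reads and 0 were called by edgeR's quasi-likelihood test at a Benjamini-Hochberg adjusted p under 0.05, against 0.0% of the 13608 genes tested. At an unadjusted p under 0.05, 1 member (CCL2, higher under siRE-mod) was called, against 17.9% of all genes. In SKNO-1, 0 of 7 members were called by the same test, against 0.0% of 13628 genes, and 4 members (CCL2, CCL28, CXCR2 and CXCR4, all higher under siRE-mod) had an unadjusted p under 0.05, against 10.7%. CCL2 in both lines, and CXCR2 in SKNO-1, passed the filter on reads only through siRE-mod libraries in which they are high. Their p-values, calls and non-overlap there are thus no evidence about the members. CXCR2 ranged from 39 to 77 reads in the SKNO-1 siMM-mod libraries and siRE-mod 1, against 266 in siRE-mod 2 and 581 in siRE-mod 3. DESeq2 called 1 member, CCL2, in Kasumi-1 (higher under siRE-mod, adjusted p = 0.0259, against 0.253 to 0.558 in the edgeR fits that kept the gene), where 8.5% of all genes were called, and 0 in SKNO-1, where 2.73% were. The labelled groups did not overlap for 0 of 8 members in Kasumi-1, against 21.6% of all genes, and for 2 of 7 in SKNO-1, CXCR2 and CCL2, against 12.1%.

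The log2 fold change of CXCR4, siRE-mod over siMM-mod by label, was 2.19 (SE 1.09, edgeR adjusted p = 0.337) in Kasumi-1 and 2.90 (SE 1.17, adjusted p = 0.466) in SKNO-1. That of CXCL8 was 2.38 (SE 1.07, adjusted p = 0.309) in Kasumi-1 and 2.67 (SE 1.17, adjusted p = 0.474) in SKNO-1. For CXCR2 the values were 0.80 (SE 0.47, adjusted p = 0.392) and 1.51 (SE 0.59, adjusted p = 0.466), and for CCL28 0.64 (SE 0.88, adjusted p = 0.695) and 2.09 (SE 0.71, adjusted p = 0.466). CCL5 had log2 fold changes of -0.39 (SE 0.70) and -0.64 (SE 0.61), CXCR6 of 0.64 (SE 0.37) and 0.23 (SE 0.58), and CXCL2, tested in Kasumi-1 only, of -0.34 (SE 0.53), with adjusted p of 0.382 to 0.912 by edgeR. The fitted log2 fold changes of CCL2, 5.18 and 7.89 (edgeR adjusted p = 0.253 and 0.466), depend on the prior count, since most libraries labelled siMM-mod held at most 2 reads, and are no bound on its change.

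These results turned on single libraries. In the fits below without Kasumi-1 siMM-mod 3 or SKNO-1 siRE-mod 1, all siMM-mod libraries were CD34-expressing and all siRE-mod libraries CD34-silent. Label and CD34 class thus coincided there and cannot be told apart. Without Kasumi-1 siMM-mod 3, the CD34-silent library of its group, edgeR called 3 of 6 members higher under siRE-mod, against 32.2% of all genes. These were CCL28 (log2 fold change 2.42, edgeR adjusted p = 0.00136), CXCR2 (1.43, adjusted p = 0.0150) and CXCL8 (3.92, adjusted p = 0.0267). CXCR2 had 64 and 107 reads in the siMM-mod libraries of this fit and 388, 369 and 285 in the siRE-mod ones. It thus passed the filter only through the group in which it is high, and its call is no evidence about the members. Without SKNO-1 siRE-mod 1, the CD34-expressing library of its group, 4 of 7 members were called higher, against 19.3% of all genes. They were CCL28 (log2 fold change 2.56, edgeR adjusted p = 0.00501), CXCL8 (3.19, adjusted p = 0.0404), CCL2 (8.46, adjusted p = 0.0412) and CXCR2 (1.84, adjusted p = 0.0426). The calls of CCL2 and CXCR2 rest on their entry through the libraries in which they are high, and are no evidence about the members. In this fit CXCR2 had 77, 39 and 64 reads under siMM-mod and 266 and 581 under siRE-mod. CXCR4 was not called in either fit (edgeR adjusted p = 0.140 and 0.0892).

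**Figure D5:**
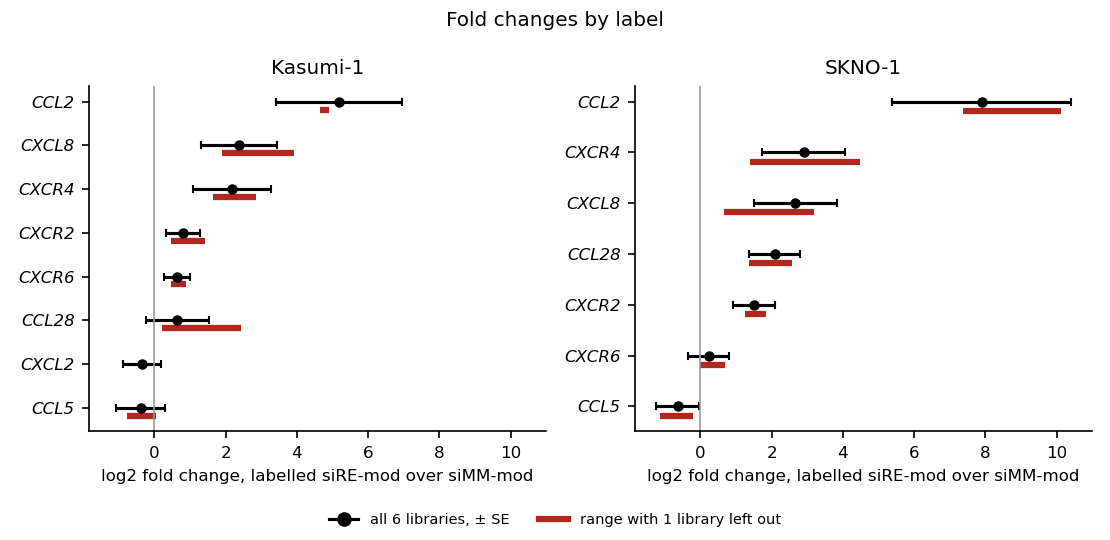
Log2 fold change of each tested member, libraries labelled siRE-mod over siMM-mod, in Kasumi-1 (left) and SKNO-1 (right), as black points with SE from 3 libraries a group, and as red bars the range over fits with 1 library left out in which the gene was kept. In SKNO-1 the range of CXCR4 runs from 1.40 to 4.49 and that of CXCL8 from 0.67 to 3.19.

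The change by label was also compared between the lines as labelled, over 10 members. Each of the 4 sets holds libraries of both line labels, so the lines compared may not be the lines named. By edgeR, 0 of 10 members had a different change in SKNO-1 than in Kasumi-1 at an adjusted p under 0.05, against 0.0% of 15863 genes, and 0 at an unadjusted p under 0.05, against 0.668%. DESeq2 called 0 members, against 0.801% of all genes. The difference in log2 fold change, SKNO-1 less Kasumi-1, was 0.76 (SE 1.65) for CXCR4, 0.33 (SE 1.65) for CXCL8 and 1.48 (SE 1.21) for CCL28, each with an edgeR adjusted p of 1.00.

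Most genes of the machinery around the receptors were well expressed, with exceptions such as TIAM1 (at most 0.193 normalized CPM) and MME (at most 0.0865). DPP4 was at most 0.0570 in the CD34-expressing libraries and at 17.1 to 85.5 in the CD34-silent ones. Of 24 genes of chemokine receptor signalling, 23 were tested in each line and 0 were called by edgeR, with 3 in Kasumi-1 and 4 in SKNO-1 at an unadjusted p under 0.05, against 17.9% and 10.7% of all genes. Their summed level was 2839 to 3929.8 normalized CPM, led by DOCK2, a Rac activator needed for lymphocyte migration (272 to 519), GNB1 (234 to 432), GNAI2 (196 to 531) and CDC42 (278 to 424). Of 22 genes for receptor desensitization and ligand processing, 20 were tested in each line and 0 were called, with 4 in Kasumi-1 and 3 in SKNO-1 at an unadjusted p under 0.05, against the same 17.9% and 10.7%. These were led by GRK2, a kinase that switches off activated receptors (406 to 694), ADAM10 (169 to 314), ARRB1 (110 to 252) and ITCH (123 to 152). Of 15 other chemokine family genes, 2 were tested in each line and 0 were called, with 1 in each at an unadjusted p under 0.05, again against 17.9% and 10.7%. CD74, a receptor for MIF, was at 113 to 287 in the CD34-expressing and 263 to 741 in the CD34-silent libraries. CCRL2, a binding protein for chemerin without signalling of its own, was at most 0.0855 in the CD34-expressing and 0.951 to 1.52 in the CD34-silent libraries. CKLF went the other way, at 3.45 to 5.26 in the CD34-expressing and 2.15 to 3.26 in the CD34-silent libraries. ACKR4 overlapped between the classes, at 0.611 to 2.21 and 0.189 to 1.11.

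Markers of the labelled cell type were present, while several other markers moved with the sets. All of the 7 AML blast genes were expressed, led by MPO (1778 to 22611), KIT (96.8 to 996), RUNX1 (141 to 410.1) and PTPRC (67.6 to 439.9). Eosinophil genes, 6 in the list, summed to 1.35 to 1.79, 157 to 195, 48.4 to 65.3 and 194 to 239 normalized CPM over the 4 sets in the order above. The sum of 157 to 195 was almost all PRG2 (156 to 193), with IL5RA at most 0.178 and CLC at most 0.382 there. SIGLEC8 ran the other way, at 0.883 to 1.26 in the CD34-expressing libraries with higher RUNX1T1 and at most 0.271 in the CD34-silent ones. Neutrophil genes (5) summed to 421 to 641 in the CD34-expressing and 61.8 to 267 in the CD34-silent libraries, almost all of it CSF3R. T and NK cell genes (7) summed to 0.667 to 21.5 with CD3G at 0, and NKG7 was at 9.79 to 19.4 in the CD34-expressing libraries with lower RUNX1T1, 3.21 to 3.76 in the CD34-silent ones with lower RUNX1T1 and at most 0.527 elsewhere. B cell genes (4) summed to 4.06 to 30.9 with MS4A1 at 0, and CD79B was at 2.60 to 8.26 in the CD34-expressing and 11.6 to 28.4 in the CD34-silent libraries. Monocyte and macrophage genes (6) summed to 7.68 to 25.1 with CD14 at most 0.0446. Of these, CSF1R was at 8.05 to 24.9 in the CD34-expressing and 0.615 to 1.53 in the CD34-silent libraries, and MRC1 at most 0.0892 and 6.46 to 10.2. Fibroblast genes (6) summed to at most 1.23, with COL1A2 at 0, and endothelial genes (4) to at most 5.55. Of the 5 epithelial genes, EPCAM was at 77.4 to 104 in the CD34-expressing and at most 0.0108 in the CD34-silent libraries. In bulk RNA, more cells of a kind and more RNA per cell cannot be told apart, and the part of these markers in the levels of chemokine genes was not tested.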

How the data were processed

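RNA-seq of 12 in vitro libraries was analysed from raw read counts per gene. The authors trimmed the reads with Trim Galore, aligned them to GRCh38 with STAR and counted over exons with subread (Rsubread in the headers), and deposited counts, CPM and FPKM in each table. The deposited CPM and FPKM are the same counts scaled, and FPKM was used only to compare genes by length. Strand setting and the treatment of reads matching several genes are not stated. The members and lists were chosen with earlier results of these data known. Genes with at least 600 reads in total in a fit were tested with edgeR 4.0.16 in R 4.3.3 (TMM, robust quasi-likelihood, Benjamini-Hochberg over all genes, threshold 0.05), the filter being that of the study. The study used DESeq2, here an alternative (1.42.0). Other alternatives were edgeR with the size factors of DESeq2, with filterByExpr or without a filter, with a replicate block, as a joint fit of the 12 libraries, and with single libraries removed. Members with at least 600 reads were all named. CXCR6, CXCL2, CXCL3 and CCL4L2 were given as ranges, CCL2 as reads per library and ranges, and the others with every library's value. Other members reaching 0.1 CPM were named with their highest value, and of each list up to 4 genes with the highest mean were named. MIF, TIAM1, MME, DPP4, SIGLEC8 and the markers at or near 0 were named after their values were seen. The test was tried on simulated counts before use. With 3 libraries against 3, the exact permutation test of a gene was not used. Libraries of the same label differed by more than sampling noise, so none of those pairs was counted as a duplicate. Libraries of different labels were not checked in this way. Among them, SKNO-1 siMM-mod 3 and SKNO-1 siRE-mod 1 held CD34 at 118 and 117 and RUNX1T1 at 127 and 123 normalized CPM. The 4 in vivo libraries were not compared. Promoters are from RefSeq (GRCh38.p14). Protein sequences were not used here. Tables and figures were made in Python.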

Additional observations from a re-analysis of the deposited data

How the results depend on the processing

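The number of members called by label was 0 in each line and for their difference with DESeq2's size factors in edgeR, without a filter, with filterByExpr and, for the lines, with all 12 libraries in one fit. With the replicate block it was also 0 in each of the 3 comparisons. Same-numbered libraries deviated from the means of their labelled groups with correlations of -0.272 to -0.0132 in Kasumi-1 and -0.246 to -0.0213 in SKNO-1. Those groups mix the CD34 and RUNX1T1 sets, so the correlations cannot show whether replicate numbers pair the libraries. DESeq2 called 1 member in Kasumi-1, CCL2, and gave it no p-value in SKNO-1. With 1 library left out, the count ranged from 0 to 3 in Kasumi-1, from 0 to 4 in SKNO-1 and was 0 throughout for the difference. In the fits that gave 3 and 4, label and CD34 class coincided, and the cause was not tested. Both counts include CXCR2, and that in SKNO-1 also CCL2, which entered these fits only through libraries in which they are high. Of 76 log2 fold changes of members with 1 library left out, 67 kept their direction and their side of the threshold, 7 passed it and 2 changed sign. These were CCL5 in Kasumi-1, at -0.76 to 0.0524 (edgeR adjusted p = 0.959 without siRE-mod 2, the sign change), and CXCR6 in SKNO-1, at -0.0226 to 0.70 (edgeR adjusted p = 0.996 without siMM-mod 2, the sign change). Of the 89 under other settings, 88 kept both and 1, CCL2 by DESeq2 in Kasumi-1, passed. At this depth the 19 members with reads but under 0.1 CPM rest on few reads per library, and an unreached threshold does not show that levels were equal.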

Other observations

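The in vivo tables list 50 of the members for Kasumi-1 cells harvested from mice, 2 libraries labelled siMM-mod and 2 labelled siRE-mod. In all 4 libraries, 0 of the 50 had a value above 0. The libraries held 24503879 to 30687062 reads, of which 0.02% to 0.0335% were listed on genes. With so few reads on genes, 5571 to 10266 per library, no level of a chemokine gene was detectable.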
